A study of Homo sapiens with 12 samples.

Results

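The difference between the effect of a miR-455 mimic and the effect of a miR-455 inhibitor was measured by RNA-seq in SW1353, an established line from a human chondrosarcoma of the humerus that stands in for chondrocytes. For each gene it was taken as the mimic minus its mimic control, less the inhibitor minus its inhibitor control, on log2(value + 0.5). All 12 libraries entered, 3 for each of the 4 groups. Each library came from cells that had received 1 oligonucleotide at 50 nM for 48 hours, either the mimic of miR-455, the control for that mimic, the inhibitor, or the control for that inhibitor, so no group was left untransfected. Genes with a value of 5 or more in 47% of the libraries or more were tested, which kept 16468 of 40490 gene identifiers. Levels of miR-455 are not part of these files, and how far each oligonucleotide changed its activity is not known from them.

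A microRNA loads into an Argonaute protein and pairs, through the seed near its 5′ end, with matching letters in the 3′ untranslated region (3′ UTR) of messenger RNAs, which lowers the amount of those messages and their translation. A mimic is a synthetic double-stranded copy that adds to the microRNA, and an inhibitor is an antisense strand that binds and blocks it. A message that miR-455-3p holds down would therefore be lower with the mimic and higher with the inhibitor, and would be negative in this difference. The mature strand is printed here because its seed, bases 2 to 8 in capitals, defines the sites counted further on. It lies at chr9:114209487-114209507 on the plus strand of GRCh38.p14, in RefSeq, within an intron of COL27A1.
hsa-miR-455-3p: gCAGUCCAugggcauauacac

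The values are normalised estimated counts, that is, the counts that the authors estimated for each gene and divided by a size factor for each library. They are not corrected for gene length, so levels were compared between groups and not between genes. Library totals ran from 10974101 to 12016813, and the share of mitochondrially encoded genes ran from 6.09% in mimic replicate 3 to 9.93% in mimic control replicate 2. Of 12 cartilage markers 6 passed the filter, SOX9 among them, whereas COL2A1 was at 0 in all groups and COL9A1, MATN3, COMP, HAPLN1 and SOX5 were below the filter. Of 12 mesenchymal markers 10 passed, and of 10 blood cell markers CD68, which many cell types express in lysosomes, made up nearly all of the sum. Leaving out mimic replicate 3 changed the count of genes past the test more than leaving out any other library did. Counts of genes, counts by group, seed matches and a few other results are therefore also given without it. Gene lengths, gene lists and most single genes are given with all 12 libraries only. In bulk RNA, fewer cells with a transcript and less of it in each cell cannot be told apart.

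Of the 16468 genes, 103 were higher in the mimic effect than in the inhibitor effect (0.625%) and 37 were lower (0.225%), by limma with Benjamini-Hochberg adjustment at 0.05. Without adjustment 2106 genes were under 0.05. The size of the difference in the 103 higher genes ran from 0.45 to 3.22 on the log2 scale, with a median of 0.87, and in the 37 lower genes from 0.42 to 3.09, with a median of 1.07. The median over all genes tested was -0.01. Among these 140 identifiers, 3 repeated the values of another gene (PADI3, MAGI1 and HYOU1 each had a second identifier with the same values). The count depended on single libraries. It was 515 without mimic replicate 3, with all 140 kept. It was 37, 51 and 44 without mimic control replicate 1, 2 and 3, and 143 and 82 without mimic replicate 1 and 2. It was 47, 59 and 39 without inhibitor control replicate 1, 2 and 3, and 37, 110 and 60 without inhibitor replicate 1, 2 and 3. In all 12 fits that each left out 1 library, 31 genes passed, 27 of them higher and 4 lower. The genes nearest the threshold were ROR2, TMEM167B and ERRFI1 inside it, with adjusted p-values of 0.0492, 0.0492 and 0.04997 in limma, and AIG1, NUTM2A, ITGA10 and PLSCR1 outside it, each at 0.0506.

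A difference of this kind can arise on either side. The mimic and inhibitor effects had opposite signs in 82 of the 103 higher genes and in 31 of the 37 lower genes. Selection on the difference between the 2 effects favours opposite signs, and the share over all genes tested is not given here. Taken alone, the mimic against its control gave 125 genes (0.759% of those tested), and 46 of the higher and 3 of the lower genes were among them. The inhibitor against its control gave 255 genes (1.55%), which held 40 of the higher and 25 of the lower genes. Both effects passed in 2 higher genes, GPC6 and RAPGEF1, and in none of the lower genes, and neither effect passed in 19 and 9. The 2 control groups differed from each other in 1667 genes (10.1%), and 58 of the higher and 11 of the lower genes were among these. These 3 comparisons share libraries with the difference and are descriptions of it.

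**Figure D1:**
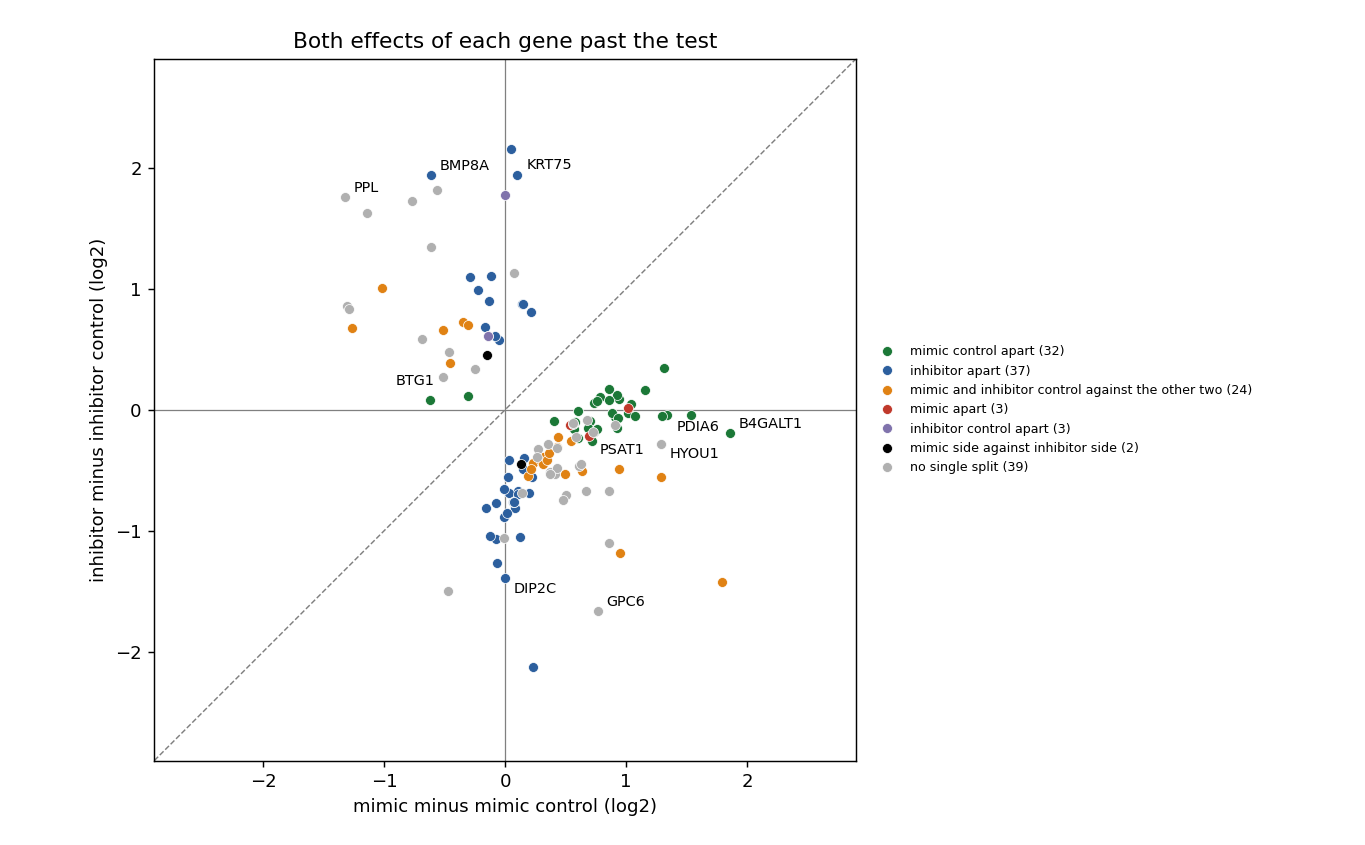
Each point is 1 of the 140 genes past the test, with mimic minus mimic control on the x axis and inhibitor minus inhibitor control on the y axis, both in log2, coloured by the group or pair of groups that stood apart; on the dashed diagonal both effects would be equal. Genes in which the mimic control stood apart lie along the x axis, and those in which the inhibitor stood apart lie along the y axis. The effects have opposite signs in 82 of the higher and 31 of the lower genes, which selection on their difference favours.

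To say which group made each difference, the 4 group means of each gene were split in each of the 7 ways, 1 group against 3 or 2 against 2, and the split that held the largest share of the spread among the means was taken if that share was at least 80%. The splits that set the mimic side against the inhibitor side, or the treated groups against the controls, cannot by themselves give a difference of this kind. The mimic control stood apart in 32 of the 140 genes, in 30 of them as the low group. The inhibitor stood apart in 37 genes, low in 24 and high in 13. The mimic and the inhibitor control stood together against the mimic control and the inhibitor in 24 genes, as high groups in 18 and as low groups in 6. The mimic stood apart in 3 genes and the inhibitor control in 3. The mimic side stood against the inhibitor side in 2 genes, ANO6 and ERRFI1, and no single split reached 80% in 39. Over all genes tested, the mimic control was the group apart in 9.75%, the inhibitor in 10.98%, the mimic in 7.94% and the inhibitor control in 8.33%. Without mimic replicate 3, the mimic was the group apart in 104 of 515 genes, the mimic control in 53, the inhibitor in 93 and the inhibitor control in 11.

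**Figure D2:**
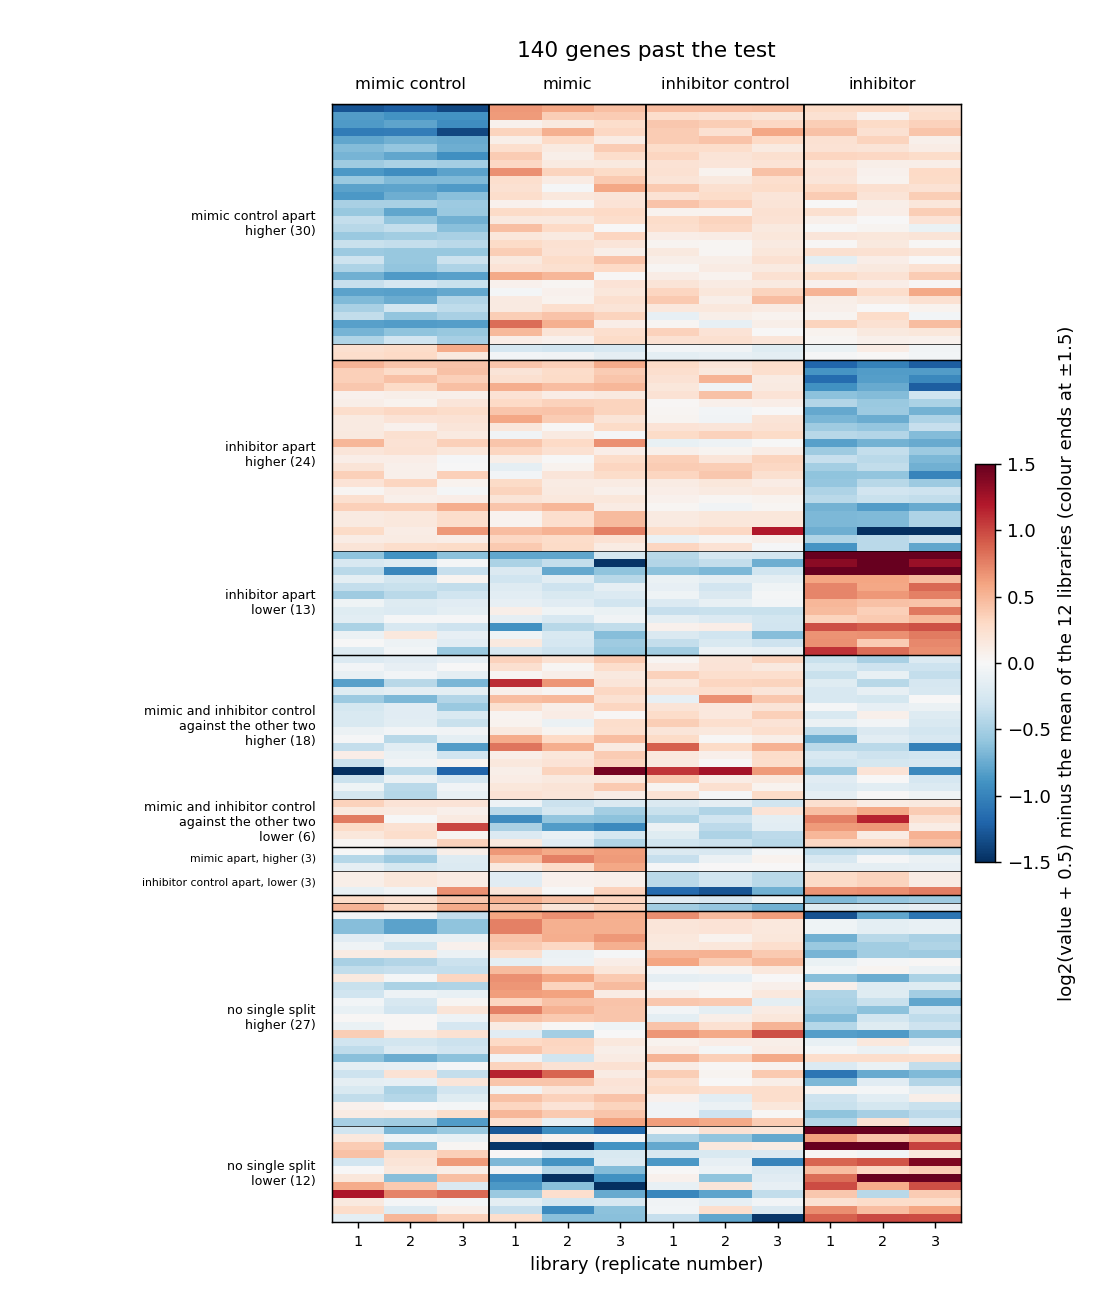
Rows are the 140 genes past the test and columns are the 12 libraries, and colour gives log2(value + 0.5) minus the mean of the 12 libraries, ending at 1.5 in each direction. Rows are grouped by the group that stood apart; in the top block of 30 genes the mimic control columns are low, and in the blocks of 24 and 13 genes the inhibitor columns are low and high.

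**Figure D3:**
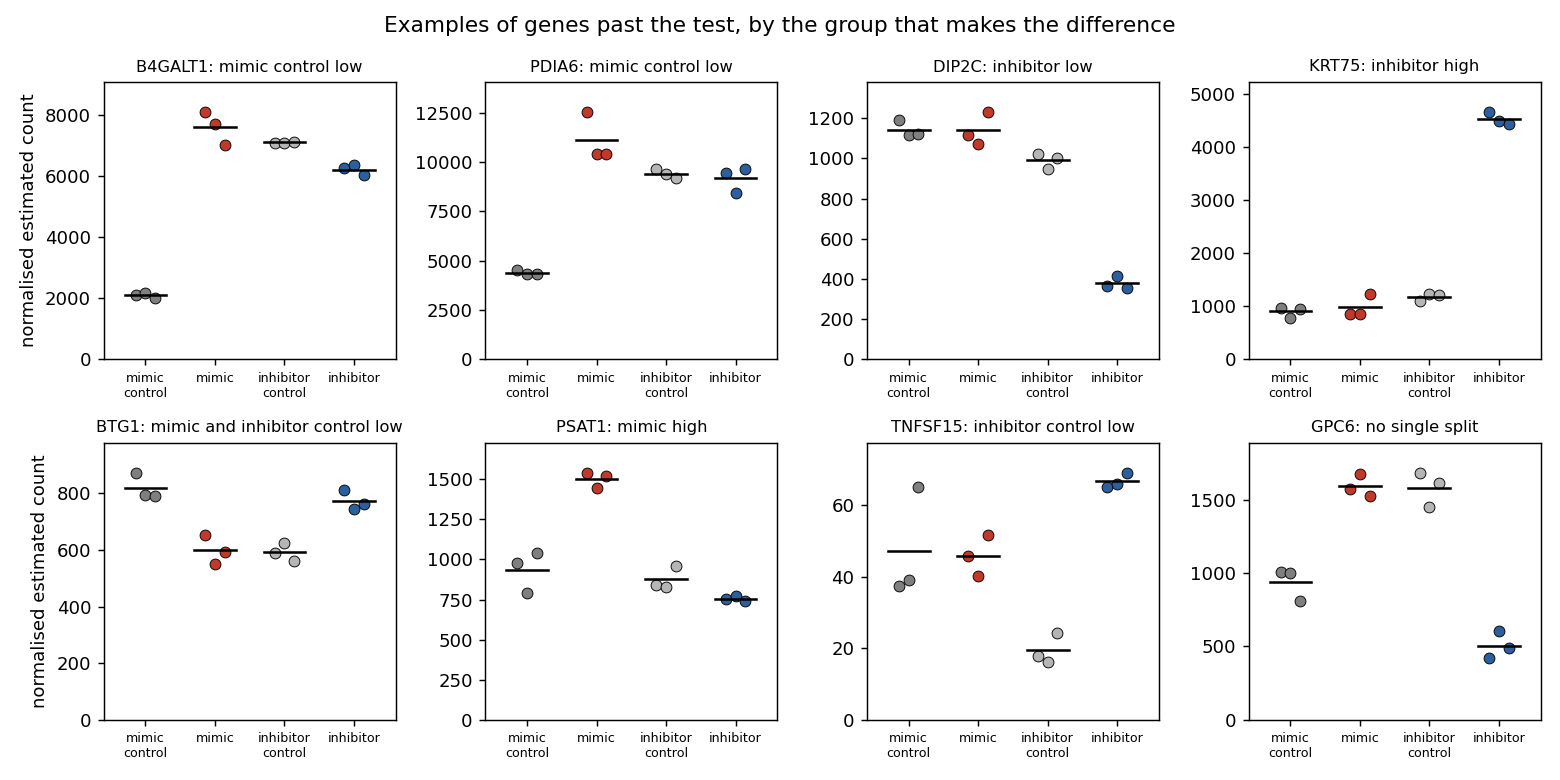
Points are the 3 libraries of each group and lines are group means, in normalised estimated counts on linear axes from 0, for 8 genes past the test. B4GALT1 and PDIA6 were low in the mimic control, DIP2C was low and KRT75 high with the inhibitor, BTG1 was low in the mimic and the inhibitor control, PSAT1 was high with the mimic, TNFSF15 was low in the inhibitor control, and GPC6 differed on both sides.

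The mimic control was the low group in 30 genes, and 16 of these passed in all 12 fits that left out 1 library. B4GALT1 (ENSG00000086062, chr9:33104082-33167356, minus strand), a Golgi galactosyltransferase that extends glycan chains, had the smallest p of all genes. Its normalised estimated counts were 2097, 2172 and 1995 in the mimic control, 8090, 7681 and 6997 with the mimic, 7080, 7086 and 7117 in the inhibitor control and 6248, 6342 and 6020 with the inhibitor. All mimic control libraries were far below the other 9, whose groups lay close together. The difference was 2.05 ± 0.097 (SE) on the log2 scale (limma adjusted p = 6e-07), with a mimic effect of 1.86 and an inhibitor effect of -0.19. PDIA6, a protein disulfide isomerase of the endoplasmic reticulum (ER), had 4498, 4301 and 4298 in the mimic control, 12539, 10388 and 10428 with the mimic, 9628, 9374 and 9210 in the inhibitor control and 9434, 8402 and 9656 with the inhibitor. Again the mimic control alone was low. The difference was 1.38 ± 0.12 (SE, limma adjusted p = 0.000155).

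FOXM1, a transcription factor that drives G2 and mitosis genes, had 328, 330 and 264 in the mimic control, 852, 980 and 840 with the mimic, 882, 797 and 1018 in the inhibitor control and 918, 796 and 904 with the inhibitor. The 3 groups other than the mimic control overlapped, and the mimic control lay below them. The difference was 1.58 ± 0.17 (SE, limma adjusted p = 0.000946), and the mimic control against the rest held almost all of the spread among the means. PPIB, an ER cyclophilin that helps fold collagen, had 4925, 5171 and 4634 in the mimic control, 9175, 8456 and 10020 with the mimic, 9362, 9295 and 8505 in the inhibitor control and 8956, 8850 and 8304 with the inhibitor. Its difference was 0.96 ± 0.11 (SE, limma adjusted p = 0.00151). Other genes of this pattern that passed in all 12 fits included FAM234A, MAZ (a zinc finger transcription factor), CKAP4 (an ER membrane protein), POGLUT3 (an ER glucosyltransferase), NCK2 (a signalling adaptor), ARPC5 (a subunit of the Arp2/3 complex that branches actin), KCNMA1 (the pore of the BK potassium channel), SUMF1 (which activates sulfatases) and GJA1 (the gap junction protein connexin 43). CUEDC1, TUB and the identifier ENSG00000284832 did so too. The pattern also held NCLN, PURB, CRK, LITAF, UBE2V1, RRBP1, TECR, GTSE1, FECH, NOP2, PABPC1, MTMR12 and ROR2, which were each lost when some single libraries were left out. In the 30 genes all 3 mimic control libraries were below the other 9, which a choice by the group means favours. Over all genes tested, the mimic control libraries were all outside the range of the other 9 in 6.31%, the mimic libraries in 2.59%, the inhibitor control libraries in 3.92% and the inhibitor libraries in 8.33%.

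The mimic control was the high group in 2 genes. PHLDA1, a gene induced by growth factor signalling, had 6924, 7087 and 6390 in the mimic control, 5638, 5567 and 5252 with the mimic, 5227, 5320 and 5226 in the inhibitor control and 5689, 5789 and 5609 with the inhibitor. The mimic control libraries were above the other 9, which lay within a narrow range. The difference was -0.42 ± 0.089 (SE, limma adjusted p = 0.0492), and it passed in 2 of the 12 fits that left out 1 library. TMEM41B, an ER lipid scramblase, was the other and is given with the seed sites.

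The 3′ UTRs of the genes low in the mimic control shared letters. Of the 29 that had a 3′ UTR in GENCODE release 29, 16 (55.2%) held the 7 letters CCCGGTG, which ranked first among all 7-letter words by its excess over all genes tested, where 511 of 14060 3′ UTRs (3.63%) held it. The shorter CCGGTG, which overlaps it, was in 22 of the 29 and in 9.20% of all 3′ UTRs. The word was searched for on the transcript strand only, in 1 3′ UTR per gene, the longest, and was chosen after the values were seen, so its count in these genes is a description with no test. Examples are shown so that the shared letters, in capitals, can be read with what surrounds them. Their coordinates are of the capitals, in GRCh38. HYOU1, described further on, had the mimic control as its lowest group, and no single split reached 80%.
B4GALT1 (chr9:33113142-33113148, minus strand): gaacacattCCCGGTGatagaattg
PPIB (chr15:64155939-64155945, minus strand): tgcactggcCCCGGTGctggcatct
CKAP4 (chr12:106238337-106238343, minus strand): cagcagagtCCCGGTGccctctgtc
FAM234A, first site (chr16:265364-265370, plus strand): ccatccttaCCCGGTGccctctcct
FAM234A, second site (chr16:266098-266104, plus strand): ctgaaaaacCCCGGTGgtcaggcgt
HYOU1 (chr11:119045254-119045260, minus strand): ctgatgggtCCCGGTGatgggaagg

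Beyond those genes, 495 other genes tested had CCCGGTG in the 3′ UTR. The median difference of these 495 was 0.13, against -0.01 in 13549 genes without it, and it was 0.09 against 0.01 without mimic replicate 3. The median of the mimic control minus the mean of the other 3 groups was -0.12 log2 with the word and 0.01 without it, and the mimic control had the lowest mean in 40.8% against 25.7%. The base composition moved with this, since the median GC content of their 3′ UTRs was 51.9%, against 42.5% in genes without the word. So did length, with a median 3′ UTR of 2697 bases against 1290. Within 3′ UTRs of 45% to 60% GC, a band chosen after seeing the data, the mimic control was lowest in 41.0% of 290 genes with the word and in 34.4% of 4842 without it, with medians of -0.11 and -0.08 log2. In the same band the median difference was 0.16 with the word and 0.00281 without it. The band did not match length, as the median 3′ UTR there was 2733.5 bases with the word and 1010.5 without it. Of the 30 genes themselves, the 29 with a 3′ UTR had a median GC content of 45.4% in it, against 42.8% over all genes. Only 12 of these 29 lay in the band, and 5 of the 12 held the word. Of all 5137 genes in the band, 295 (5.74%) held it. Of 2545 human mature microRNAs in RefSeq, 1 had bases 2 to 8 that pair with these letters, hsa-miR-181d-3p. As background, the same letters would pair with bases 2 to 8 of the nematode microRNA miR-39-3p. The sequence of the control mimic is not given in the sources used here, and its part in these values was not tested.

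With the inhibitor as the group apart, 24 genes were low and 13 were high. DIP2C (ENSG00000151240, chr10:274190-689668, minus strand), a disco-interacting protein homologue, had 1189, 1114 and 1120 in the mimic control, 1116, 1072 and 1231 with the mimic, 1020, 950 and 1002 in the inhibitor control and 365, 414 and 353 with the inhibitor. The inhibitor libraries were far below the other 9. The difference was 1.39 ± 0.12 (SE, limma adjusted p = 0.000155), with an inhibitor effect of -1.39 and a mimic effect close to 0. CDH4, the cell adhesion molecule R-cadherin, had 1076, 1024 and 1142 in the mimic control, 961, 1016 and 1099 with the mimic, 1007, 930 and 1001 in the inhibitor control and 455, 471 and 470 with the inhibitor. The inhibitor was again the lone low group, with a difference of 1.00 ± 0.11 (SE, limma adjusted p = 0.00135). TENM1, a teneurin of the cell surface, had 2437, 2566 and 2426 in the mimic control, 2233, 2319 and 2535 with the mimic, 2210, 2709 and 2060 in the inhibitor control and 853, 1073 and 972 with the inhibitor. Its difference was 1.19 ± 0.15 (SE, limma adjusted p = 0.00421). NRXN3, a neurexin, fell from a mean of 506 ± 40.2 (SD, n = 3) in the inhibitor control to 246 ± 39.8 with the inhibitor, with 619 and 673 in the mimic control and the mimic, and gave a difference of 1.17 ± 0.17 (SE, limma adjusted p = 0.00808). These 4 genes passed in all 12 fits that left out 1 library.

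Among signalling and matrix genes low with the inhibitor, FGFR2, a receptor for fibroblast growth factors, had means of 696 in the mimic control, 773 with the mimic, 745 in the inhibitor control and 531 ± 32.8 (SD, n = 3) with the inhibitor, and a difference of 0.64 ± 0.13 (SE, limma adjusted p = 0.0416). Tenascin C (TNC), a matricellular protein, had 3850, 3943, 3614 and 2709 ± 64.2 (SD, n = 3) in the same order, and a difference of 0.45 ± 0.090 (SE, limma adjusted p = 0.0416). HK2, the hexokinase that starts glycolysis in many growing cells, had 1534, 1657, 1140 and 705, and a difference of 0.80 ± 0.15 (SE, limma adjusted p = 0.0295). FGFR2 and TNC each passed in 1 and HK2 in 5 of the 12 fits that left out 1 library. OVCH2 had the largest difference of the group, 2.36 ± 0.48 (SE, limma adjusted p = 0.0478), with 27.4, 10.2 and 13.3 with the inhibitor against 49.6 to 106 elsewhere, and passed in 2 of the 12 fits. The others were WLS and FZD5 (Wnt secretion and a Wnt receptor), ADAMTS12 (a metalloprotease), TGOLN2, FTO, TSHZ2, PTPRG, SLC24A3, NALF1, MAGI1 with its second identifier, SPOCK1, SORCS2, NUCKS1, GRID1 and CSMD2.

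The genes low with the inhibitor were long. Their median length in the genome was 510 kb (23 genes with an annotated length, from 6.98 to 1698 kb), against 31.2 kb over all genes tested, 42.5 kb in the genes low in the mimic control and 13.8 kb in the genes high with the inhibitor. Of all 103 higher genes, 27 of the 98 with a length exceeded 200 kb (27.6%), against 2 of 36 lower genes (5.56%) and 7.54% of all genes tested. The level with the inhibitor against the other 3 groups followed length over all genes tested. Its median was 0.17 log2 in 3297 genes of up to 10 kb, 0.07 from 10 to 30 kb, -0.05 from 30 to 100 kb, -0.14 from 100 to 200 kb, -0.22 from 200 to 500 kb and -0.35 in 214 genes over 500 kb. The difference between the mimic and inhibitor effects changed little up to 200 kb. Its medians in the same classes were -0.042, -0.009, -0.005, 0.005, 0.077 and 0.224 log2. The 3 inhibitor libraries were all below the other 9 in 0.971% of genes in the shortest class and in 20.1% of those in the longest. Among the genes over 500 kb, 18 were higher in the difference and 1 was lower, against 10 and 7 of the shortest class. These values are descriptions across genes of the same libraries, and the part of length in the difference was not tested.

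**Figure D4:**
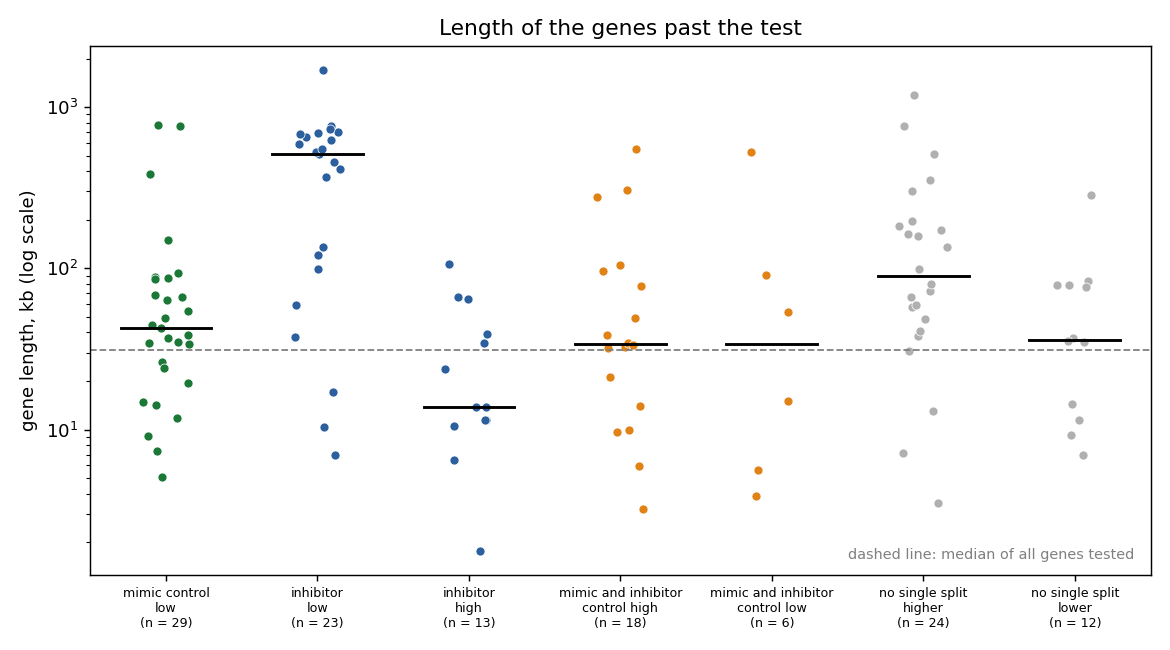
Points are genes past the test, by the group that stood apart and its direction, with gene length in kb on a log axis; black lines are medians and the dashed line is the median of all genes tested, 31.2 kb. Genes low with the inhibitor have a median of 510 kb, whereas those high with the inhibitor have a median of 13.8 kb.

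In the other direction, KRT75 (ENSG00000170454, chr12:52424070-52434525), a type II keratin of hair follicles, had 960, 783 and 951 in the mimic control, 850, 849 and 1221 with the mimic, 1095, 1231 and 1207 in the inhibitor control and 4658, 4487 and 4432 with the inhibitor. Only the inhibitor libraries were high, by a margin wider than the range of the other 9. The difference was -1.84 ± 0.19 (SE, limma adjusted p = 0.000644) and passed in all 12 fits that left out 1 library. BMP8A, a ligand of the bone morphogenetic protein (BMP) family, had 49.5, 50.8 and 57.0 in the mimic control, 41.8, 45.4 and 20.7 with the mimic, 43.0, 45.5 and 34.8 in the inhibitor control and 150, 184 and 144 with the inhibitor. The inhibitor libraries lay well above the rest, and mimic replicate 3 was the lowest of all. The difference was -2.55 ± 0.37 (SE, limma adjusted p = 0.00873) and also passed in all 12 fits. BMP8A shares much of its sequence with a neighbouring copy, BMP8B, so the division of estimated counts between them is uncertain, as it is among keratins.

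CALHM3, a subunit of a calcium homeostasis modulator channel, had 19.9, 13.1 and 20.7 in the mimic control, 22.7, 15.4 and 17.2 with the mimic, 17.1, 16.3 and 21.4 in the inhibitor control and 76.1, 75.2 and 99.1 with the inhibitor. The first 3 groups overlapped and the inhibitor lay above them, with a difference of -2.11 ± 0.37 (SE, limma adjusted p = 0.0230) that passed in 5 of the 12 fits. S100A10, the partner of annexin A2, had 2133, 2332 and 2518, then 2771, 2639 and 2689, then 2952, 2657 and 3036, then 5121, 4838 and 5207 in the mimic control, mimic, inhibitor control and inhibitor. Its difference was -0.60 ± 0.11 (SE, limma adjusted p = 0.0336), passing in 4 of the 12 fits. The others high with the inhibitor were MT1X (a metallothionein), SMOX (spermine oxidase), AKR1B10 (an aldo-keto reductase), KDM1A (a histone demethylase), CAPG (an actin capping protein), TCN1 (a vitamin B12 carrier), MYPN, THSD1 and FAUP4. In the same libraries the summed level of 10 epithelial markers was 4863 to 5417 with the inhibitor, against 2281 to 2611 in the mimic control, 2695 to 3416 with the mimic and 3235 to 3605 in the inhibitor control. Nearly all of that sum was KRT8 and KRT18, and 5 of the 10, EPCAM, CDH1, KRT14, KRT19 and CLDN3, were below the filter. No marker passed the test itself, and the part of these markers in the genes high with the inhibitor was not tested.

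In 24 genes the mimic and the inhibitor control lay together against the mimic control and the inhibitor, so that the mimic and inhibitor effects had opposite signs. Over all genes tested, this pattern was found in 5.30%. The split is the same contrast as the difference tested, so passing the test favours the pattern and the separation of its pairs. The difference between the 2 controls passed by itself in 12 of the 24, against 10.1% of all genes tested. The pattern by its definition sets the 2 controls apart. The libraries of the pairs did not overlap in 15, and no matching share over all genes tested is given here. BTG1, an antiproliferative gene of the BTG/TOB family, had 873, 793 and 790 in the mimic control, 654, 550 and 591 with the mimic, 589, 624 and 560 in the inhibitor control and 811, 745 and 763 with the inhibitor. The mimic control overlapped the inhibitor, the mimic overlapped the inhibitor control, and the 2 pairs did not overlap. The difference was -0.84 ± 0.13 (SE, limma adjusted p = 0.0107) and passed in all 12 fits that left out 1 library, from a mimic effect of -0.45 and an inhibitor effect of 0.39. It was the only one of the 6 lower genes of this pattern to pass in all 12 fits. FLOT1, a scaffold protein of membrane microdomains, had 2071, 2060 and 1975 in the mimic control, 1418, 1560 and 1319 with the mimic, 1491, 1373 and 2164 in the inhibitor control and 2554, 2796 and 2435 with the inhibitor. Inhibitor control replicate 3 lay just above the mimic control and well above the other inhibitor control libraries. The difference was -1.17 ± 0.20 (SE, limma adjusted p = 0.0196) and passed in 7 of the 12 fits.

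PLXNA4, a receptor for semaphorins, had 170, 98.8 and 108 in the mimic control, 51.2, 65.4 and 64.1 with the mimic, 72.1, 80.5 and 89.3 in the inhibitor control and 167, 221 and 116 with the inhibitor. The low pair and the high pair did not overlap, although the high libraries were scattered. The difference was -2.03 ± 0.35 (SE, limma adjusted p = 0.0224), passing in 6 of the 12 fits. CCDC62 had means of 45.3, 18.2, 26.6 and 43.3 in the mimic control, mimic, inhibitor control and inhibitor, and a difference of -1.94 ± 0.37 (SE, limma adjusted p = 0.0365). HEY1 and USP40 completed the lower genes. Among the 18 higher genes, FAM89A passed in all 12 fits, with 302, 309 and 319 in the mimic control, 443, 408 and 458 with the mimic, 356, 398 and 440 in the inhibitor control and 275, 247 and 302 with the inhibitor. It was higher in the mimic and the inhibitor control than in the other groups, without overlap, and the difference was 1.03 ± 0.15 (SE, limma adjusted p = 0.0105). CBR1, a carbonyl reductase, had means of 1575 in the mimic control, 1938 ± 206 (SD, n = 3) with the mimic, 2046 in the inhibitor control and 1529 ± 74.6 (SD, n = 3) with the inhibitor, and a difference of 0.71 ± 0.11 (SE, limma adjusted p = 0.0147). PRR11, a cell cycle gene, had 49.6, 65.7 and 54.0 in the mimic control, 189, 138 and 99.4 with the mimic, 97.8, 110 and 110 in the inhibitor control and 76.8, 65.5 and 73.1 with the inhibitor. Its mimic libraries spanned a wide range above the mimic control, and the difference of 1.84 ± 0.29 (SE, limma adjusted p = 0.0147) passed in 10 of the 12 fits. Beside PRR11, the largest differences of these 18 genes were 3.22 ± 0.65 for AC007325.4, 2.13 ± 0.41 for MEX3A and 1.43 ± 0.26 for ACTR3B (SE, limma adjusted p = 0.0454, 0.0378 and 0.0284). AC007325.4 lies on the scaffold KI270734.1, MEX3A is an RNA-binding protein and ACTR3B is an actin-related protein. Their highest library values were 52.9, 46.4 and 231. The 3 differences passed in 4, 1 and 4 of the 12 fits. The remaining genes were MXRA7, TNS3, MAP2K1 (the kinase MEK1), ENC1, CALM3, C1orf198, SNTB1, PIK3CD, PDE1C, FAH, TEF and WFS1.

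The mimic was the group apart in 3 genes, each of them high. PSAT1, an enzyme of serine synthesis, had 980, 790 and 1039 in the mimic control, 1541, 1448 and 1520 with the mimic, 844, 828 and 961 in the inhibitor control and 756, 772 and 739 with the inhibitor. The 3 mimic libraries, replicate 3 included, lay above the other 9, and the difference was 0.90 ± 0.14 (SE, limma adjusted p = 0.0147) and passed in 10 of the 12 fits. PRICKLE1, a planar cell polarity protein, had 602, 556 and 711 in the mimic control, 1141, 1376 and 1260 with the mimic, 640, 763 and 845 in the inhibitor control and 690, 805 and 766 with the inhibitor. Its difference was 1.00 ± 0.18 (SE, limma adjusted p = 0.0230), which was a mimic effect of 1.02 beside an inhibitor effect of 0.01. SLC1A5, a glutamine transporter, had means of 2033, 2980, 2335 and 2136 in the mimic control, mimic, inhibitor control and inhibitor, and a difference of 0.67 ± 0.13 (SE, limma adjusted p = 0.0441) that passed in 2 of the 12 fits. In none of the 3 was a 3′ UTR match to the seed found, of the kinds counted further on.

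Leaving out mimic replicate 3 enlarged this pattern. The 104 genes in which the mimic then stood apart were 41 higher and 63 lower, and 4 of them were among the 140. In 69 of the 104, the value of mimic replicate 3, which took no part in that choice, lay within the range of the 9 libraries of the other groups. A library left out of such a choice tends to lie nearer the other groups than those that made it. No matching count for mimic replicate 1 or 2, or over all genes tested, is given here. NRP1, a co-receptor of semaphorins and vascular endothelial growth factor, had the smallest p of the 104 genes. Its values were 6077, 7087 and 6936 in the mimic control, 11504, 11365 and 8143 with the mimic, 7880, 7543 and 8333 in the inhibitor control and 5468, 6592 and 5248 with the inhibitor. The first 2 mimic libraries were above all others and the third lay among the inhibitor controls. WRN, the helicase lost in Werner syndrome, had 266, 252 and 120 with the mimic and 82.6 to 135 elsewhere. GLIS2, a zinc finger protein, had 51.8, 25.5 and 429 with the mimic and 147 to 402 elsewhere. In both, the third mimic library lay on the other groups or past them, and with all libraries their limma adjusted p-values were 0.150 and 0.712, beside 0.00212 and 0.00742 without it. These 3 genes were chosen after their values were seen.

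The inhibitor control was the group apart in 2 genes and 1 repeated identifier, each of them low. TNFSF15, a cytokine of the tumour necrosis factor family, had 37.5, 39.0 and 65.1 in the mimic control, 45.7, 40.2 and 51.7 with the mimic, 17.7, 16.2 and 24.3 in the inhibitor control and 65.0, 65.8 and 69.0 with the inhibitor. The inhibitor control was below the rest, and mimic control replicate 3 reached the level of the inhibitor. The difference was -1.77 ± 0.34 (SE, limma adjusted p = 0.0365) and passed in 1 of the 12 fits. PADI3, a peptidylarginine deiminase, had means of 704, 642, 500 and 765 in the mimic control, mimic, inhibitor control and inhibitor, and a difference of -0.75 ± 0.13 (SE, limma adjusted p = 0.0230), passing in 6 of the 12 fits.

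In 39 genes no single split held 80% of the spread, and several of the smallest p-values were among them. GPC6 (ENSG00000183098, chr13:93226842-94407401, plus strand), a cell surface heparan sulfate proteoglycan, had 1007, 1001 and 808 in the mimic control, 1571, 1673 and 1525 with the mimic, 1683, 1446 and 1610 in the inhibitor control and 418, 605 and 487 with the inhibitor. The mimic was above its control and the inhibitor below its control, each without overlap, and the 2 controls did not meet. The difference was 2.43 ± 0.18 (SE, limma adjusted p = 8.43e-05), a mimic effect of 0.77 less an inhibitor effect of -1.66. RAPGEF1, an exchange factor for the small GTPase Rap1, had 502, 522 and 523 in the mimic control, 761, 825 and 884 with the mimic, 627, 586 and 634 in the inhibitor control and 341, 422 and 403 with the inhibitor. It too rose with the mimic and fell with the inhibitor, with effects of 0.67 and -0.67, and the difference was 1.34 ± 0.14 (SE, limma adjusted p = 0.000653). THBS2, the matricellular protein thrombospondin 2, had 216, 187 and 235 in the mimic control, 295, 280 and 328 with the mimic, 250, 255 and 269 in the inhibitor control and 153, 157 and 164 with the inhibitor. The order of the groups was the same as for RAPGEF1, the mimic effect of 0.50 did not pass by itself (limma adjusted p = 0.0639), and the difference was 1.21 ± 0.16 (SE, limma adjusted p = 0.00421).

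HYOU1, an ER chaperone of the HSP70 family, had 201, 179 and 206 in the mimic control, 527, 453 and 454 with the mimic, 354, 359 and 348 in the inhibitor control and 300, 283 and 290 with the inhibitor. The mimic control was lowest, the mimic highest, and no 2 groups overlapped. The difference was 1.57 ± 0.14 (SE, limma adjusted p = 0.000155), and the mimic control against the rest held 70.6% of the spread. COLEC12, a scavenger receptor, had means of 809, 807, 1079 and 519 in the mimic control, mimic, inhibitor control and inhibitor, and a difference of 1.05 ± 0.15 (SE, limma adjusted p = 0.00780). GPC6, RAPGEF1, THBS2, HYOU1 and COLEC12 passed in all 12 fits that left out 1 library. PI15, a trypsin inhibitor, had a difference of 1.96 ± 0.38 (SE, limma adjusted p = 0.0393) that passed in 1 of the 12 fits. The other higher genes were LZTS1, TMEM181, SMYD3, SH3BGRL2, NRP1, KCNJ6, ARSJ, CCN4, CEMIP, PRICKLE2, HMGN2, UHRF1, NXPE3, ITGA11, KIAA0513, POLA1, TMEM167B, CRIM1 and 3 identifiers without a symbol, 1 of which repeats HYOU1.

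Of the 12 lower genes with no single split, a second identifier of SOD2 (ENSG00000285441), the mitochondrial superoxide dismutase, was the 1 that passed in all 12 fits that left out 1 library. It had 25.3, 19.3 and 21 in the mimic control, 12.6, 16 and 13.7 with the mimic, 31.8, 36.1 and 35.5 in the inhibitor control and 90.1, 91.0 and 84.3 with the inhibitor. The mimic was below its control and the inhibitor above its own, with no overlap, and the difference was -1.96 ± 0.28 (SE, limma adjusted p = 0.00866). It overlaps the main SOD2 identifier, so the division of counts between them is uncertain, and the main identifier had 0.09 ± 0.17 (SE, limma adjusted p = 0.879). PPL, the desmosome protein periplakin, had the most negative difference, with 28.1, 14.4 and 21.9 in the mimic control, 7.55, 5.88 and 11.3 with the mimic, 12.5, 24.1 and 23.5 in the inhibitor control and 84.8, 77.5 and 44.3 with the inhibitor. The low values of the mimic and the high values of the inhibitor both contributed, at -1.33 and 1.76, and the difference was -3.09 ± 0.54 (SE, limma adjusted p = 0.0230), passing in 5 of the 12 fits. TGFBI, a matrix protein induced by TGF-beta, had means of 179, 188, 118 and 259 in the mimic control, mimic, inhibitor control and inhibitor, and a difference of -1.06 ± 0.18 (SE, limma adjusted p = 0.0194), passing in 7. The differences of FBP1 (a gluconeogenic phosphatase), KRT71, HTRA4, NUTM2B and GREB1L lay between -2.77 and -2.12, each with no group mean above 73.6 and each passing in 2 or 3 of the 12 fits. IRAK2, GNG11, GCNA and GNB5 completed the group.

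ERRFI1, a feedback inhibitor of the epidermal growth factor receptor, had 2280, 1966 and 2357 in the mimic control, 2112, 1810 and 2009 with the mimic, 1111, 1073 and 968 in the inhibitor control and 1406, 1437 and 1469 with the inhibitor. The mimic and its control overlapped and lay above both groups of the inhibitor side, where the inhibitor was above its control, and the difference was -0.61 ± 0.13 (SE, limma adjusted p = 0.04997). In ANO6, a phospholipid scramblase, the inhibitor side was likewise below the mimic side, with means of 1980, 2169, 1453 and 1063 in the mimic control, mimic, inhibitor control and inhibitor. The difference was 0.58 ± 0.12 (SE, limma adjusted p = 0.0492). They passed in 2 and 1 of the 12 fits that left out 1 library.

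FGF18, a growth factor of cartilage and bone that the study followed, did not pass. Its values were 8.65, 14.2 and 7.53 in the mimic control, 1.03, 8.78 and 7.35 with the mimic, 5.45, 5.82 and 8.29 in the inhibitor control and 34.9, 33.6 and 52.7 with the inhibitor. The inhibitor libraries were above the other 9, the mimic overlapped its control, and mimic replicate 1 was the lowest. The difference was -3.63 ± 0.84 (SE, limma adjusted p = 0.0688). A filter of at least 20 left it out. Over the other 22 alternatives its adjusted p ran from 0.0261 to 0.176 and was under 0.05 in 4, with a pseudocount of 5 (-2.52, adjusted p = 0.0284), with array weights (-3.20, 0.0261), without mimic replicate 1 (-2.80, 0.0399) and without mimic replicate 3 (-3.98, 0.0338). BMP4, a BMP ligand, had means of 105, 98.7, 116 and 152 in the mimic control, mimic, inhibitor control and inhibitor, and a difference of -0.50 ± 0.22 (SE, limma adjusted p = 0.352). BMPR1A, a BMP receptor, had 758, 770, 777 and 656, and a difference of 0.25 ± 0.21 (SE, limma adjusted p = 0.70). Of the 13 genes of the study's skeletal list 8 were tested and none passed, with 2 under 0.05 unadjusted. The others tested were HJV, PANX3, SRD5A1, IFITM1 and VCAN, whose differences ran from -0.46 to 1.44.

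For the seed of miR-455-3p, the same 3′ UTRs were read, on the transcript strand, for TGGACTG (7mer-m8) and for TGGACTG followed by A (8mer, which holds the 7mer-m8). Of 14060 genes tested with a 3′ UTR, 1852 (13.2%) had 1 or more. The share was 8.57% of the lower genes (3 of 35), the direction of a message held down by the microRNA, and 21.6% of the higher genes (21 of 97). The median 3′ UTR length was 623 bases in the lower and 2584 in the higher genes, against 1328 over all genes tested. Over all genes the median difference was -0.000691 with a match and -0.00699 without, and 551 genes with an 8mer had a median of -0.00577. The 3 lower genes with a match were GNB5, TMEM41B and HEY1. The sites of the first 2 are shown with the match in capitals, to give its surroundings and position, with coordinates of the capitals in GRCh38. The HEY1 site, a 7mer-m8, is not printed.
GNB5, 8mer (chr15:52122313-52122319, minus strand): tgctgattttaTGGACTGaggactg
GNB5, 7mer-m8 (chr15:52117823-52117829, minus strand): gccctgagatcTGGACTGggcgggc
GNB5, 7mer-m8 (chr15:52115742-52115748, minus strand): ctaaaaaccacTGGACTGtaagagg
GNB5, 7mer-m8 (chr15:52115307-52115313, minus strand): ctcatattgtgTGGACTGgaaattc
TMEM41B, 8mer (chr11:9281464-9281470, minus strand): attacatgatgTGGACTGattattt

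GNB5, a G protein beta subunit, had 496, 436 and 436 in the mimic control, 404, 372 and 377 with the mimic, 430, 409 and 435 in the inhibitor control and 522, 541 and 542 with the inhibitor. The mimic was below its control and the inhibitor above its own, both without overlap. The difference was -0.58 ± 0.12 (SE, limma adjusted p = 0.0483), from effects of -0.25 and 0.33 that did not pass by themselves. HEY1, a transcription factor downstream of Notch, had 100, 107 and 91.6 in the mimic control, 77.6, 82.8 and 74.1 with the mimic, 79.0, 64.7 and 68.0 in the inhibitor control and 127, 97.5 and 128 with the inhibitor. As in GNB5, the mimic libraries were below their controls and the inhibitor libraries above theirs without overlap, and the difference was -1.07 ± 0.21 (SE, limma adjusted p = 0.0416). TMEM41B had 555, 567 and 692 in the mimic control, 393, 384 and 397 with the mimic, 456, 452 and 415 in the inhibitor control and 438, 508 and 452 with the inhibitor. Here the mimic was below its control, whereas the inhibitor overlapped its control, and the mimic control stood apart as the high group. The difference was -0.70 ± 0.14 (SE, limma adjusted p = 0.0483). GNB5 and HEY1 passed in 2 and TMEM41B in 1 of the 12 fits that left out 1 library. Without mimic replicate 3, 20 of 199 lower genes with a 3′ UTR (10.1%) and 49 of 272 higher genes (18.01%) had a match, against 13.2% of all. Of the genes that were then low with the mimic alone, 7 of 52 with a 3′ UTR (13.5%) had one.

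The 26 gene lists held few genes past the test. Over all genes tested, the difference was above 0 in 8081 of 16468. Among the cell growth lists, 1 of 25 G2 and mitosis genes was higher (FOXM1) and the median difference was 0.44, with 23 of 25 above 0, whereas the median over all genes tested was -0.01. CCNB2, a mitotic cyclin, had 0.62 ± 0.18 (SE) and did not pass (limma adjusted p = 0.151). Of 22 G1/S and DNA replication genes, 2 were higher, UHRF1, which keeps DNA methylation at replication, by 0.81 ± 0.16 and POLA1, the catalytic subunit of DNA polymerase alpha, by 0.91 ± 0.19 (SE, limma adjusted p = 0.0365 and 0.0485), and the median was 0.28. The mimic control had the lowest UHRF1 and POLA1 means of the 4 groups, 276 and 218. Among 10 histone genes none passed, and the median was -0.34. H2AC11 had -0.75 ± 0.18 and H2BC12 had -0.55 ± 0.15 (SE, limma adjusted p = 0.0891 and 0.131).

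For the secretory pathway and metabolism, 2 of 24 ER chaperone and ER-associated degradation genes were higher (PDIA6 and HYOU1), with a median of 0.25. Calreticulin (CALR) had 0.38 ± 0.098 (SE) and did not pass (limma adjusted p = 0.104). In the cholesterol synthesis list, 1 of 24 was higher and the median was 0.29, with 23 of 24 above 0. CYP51A1 and HMGCS1, enzymes of the pathway, had 0.65 ± 0.21 and 0.48 ± 0.16 (SE, limma adjusted p = 0.192 and 0.211). Of 19 ATF4 and amino acid response genes 1 was higher (PSAT1), with a median of 0.07. Of 22 hypoxia and glycolysis genes 1 was higher (HK2), with a median of 0.12. Of 13 mitochondrially encoded proteins none passed, with a median of -0.20, and MT-CO2 and MT-CYB had -0.51 ± 0.23 and -0.38 ± 0.18 (SE, limma adjusted p = 0.376 and 0.399). Of 30 cytosolic ribosomal proteins none passed, with a median of 0.03, and RPL37 and RPS27 had 0.55 ± 0.18 and -0.40 ± 0.14 (SE, limma adjusted p = 0.211 and 0.238).

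Immune and stress lists held none. Over all genes tested, 8081 of 16468 differences were above 0 and 2106 were under 0.05 unadjusted. The 33 type I interferon response genes had a median of -0.40, with 4 of 33 above 0 and 10 under 0.05 unadjusted. SAMD9, an interferon-induced antiviral protein, came nearest, with means of 825, 576, 582 and 816 in the mimic control, mimic, inhibitor control and inhibitor, and a difference of -1.04 ± 0.22 (SE, limma adjusted p = 0.0542). The mimic and the inhibitor control were the low groups. IFI44 had -1.42 ± 0.37 (SE, limma adjusted p = 0.112). Other lists held as large a share under 0.05 unadjusted, with 11 of 24 ER genes, 9 of 25 G2 and mitosis genes and 5 of 9 keratins. The microRNA machinery list held 0 of 14. The medians of the NF-kB, immediate early and p53 lists were -0.09, -0.05 and -0.21. TNFAIP2, induced by tumour necrosis factor, had -0.43 ± 0.10 and RELB, an NF-kB subunit, had 0.35 ± 0.29 (SE, limma adjusted p = 0.0607 and 0.69). JUND, a subunit of AP-1, had -0.60 ± 0.18 and CCN2, connective tissue growth factor, had 0.47 ± 0.15 (SE, limma adjusted p = 0.17 and 0.186). TP53I3, a p53 target, had 82.2, 240, 281 and 442 in the mimic control, mimic, inhibitor control and inhibitor, and a difference of 0.88 ± 0.19 (SE, limma adjusted p = 0.0522). SESN1, a stress-induced sestrin, had -0.86 ± 0.23 (SE, limma adjusted p = 0.117).

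Among signalling pathways, 1 of 7 FGF ligands and receptors was higher (FGFR2) and 1 of 23 BMP pathway genes was lower (BMP8A), with list medians of 0.32 and -0.25. Of 21 TGF-beta and activin genes 1 was lower (TGFBI), of 11 ERK feedback genes 1 was lower (PHLDA1), and of 23 Wnt pathway genes 1 was higher, ROR2, a receptor for noncanonical Wnts, by 0.73 ± 0.15 (SE, limma adjusted p = 0.0492). Those lists had medians of 0.01, -0.23 and 0.09. Of 17 circadian clock genes 1 was higher, TEF, a clock-controlled transcription factor, by 0.73 ± 0.15 (SE, limma adjusted p = 0.0475), with a median of -0.00286. Among structural genes, 2 of 22 collagens and matricellular proteins were higher (TNC and THBS2, median 0.12) and 1 of 9 keratins was lower (KRT75, median -0.52, with 1 of 9 above 0). KRT15 and KRT81 had -0.64 ± 0.16 and -0.52 ± 0.14 (SE, limma adjusted p = 0.0924 and 0.112), with the inhibitor as the high group in both. None of the 16 listed matrix proteases passed. MMP1 and MMP13, collagenases, had 0.98 ± 0.21 and 1.05 ± 0.27 (SE, limma adjusted p = 0.0565 and 0.102), with the highest mean in the inhibitor control. Of 11 reported miR-455-3p targets, 14 genes of the microRNA machinery and 13 osteoblast genes none passed. TGFBR2, the type II TGF-beta receptor, and HDAC8, a histone deacetylase, came first by p among the reported targets, with -0.29 ± 0.13 and 0.31 ± 0.17 (SE, limma adjusted p = 0.383 and 0.493). AGO1, an Argonaute, and ZSWIM8, which takes part in microRNA decay, came first in the machinery list, with 0.32 ± 0.15 and -0.51 ± 0.24 (SE, limma adjusted p = 0.411 and 0.412). Among osteoblast genes, TNFRSF11B (osteoprotegerin) and PHEX had 0.56 ± 0.28 and -0.36 ± 0.22 (SE, limma adjusted p = 0.436 and 0.544). The medians of the 3 lists were 0.03, 0.08 and 0.02. The lists do not hold whole families. The keratin KRT71, the Wnt genes WLS and FZD5 and the metalloprotease ADAMTS12 passed the test but were not counted in them. Over all genes tested, 0.625% were higher and 0.225% lower, and nothing particular to a list is drawn from counts of 1 or 2.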

How the data were processed

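RNA-seq was made from SW1353 cells in 4 groups of 3 libraries, grouped by the titles that GEO gives. The authors named FastQC, Trim Galore, kallisto and sleuth on hg38; their versions and the annotation release are not given in the sources used here. What the authors deposited is a signal, an estimated count per Ensembl gene divided by a size factor per library, with 1 file a library. Reads that fit several transcripts were divided by estimation, so values of near-identical genes are uncertain. As the unit is not a raw count, log2(value + 0.5) was analysed with limma 3.58.1 in R 4.3.3 (4 group means, eBayes with an intensity trend, two-sided, Benjamini-Hochberg over 16468 genes, threshold 0.05), a procedure tested on simulated data. Python 3.11.15, pandas 2.3.3 and numpy 2.4.6 made the tables, and matplotlib 3.10.9 the plots. Symbols were found for 35521 of 40490 identifiers, and 35493 were in GENCODE release 29 (GRCh38), the source of lengths and 3′ UTRs.

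The error behind each p-value is the spread between libraries from a single cell line, and no source used here says whether these came from separate transfections. The contrast, the gene lists and the tests were chosen with earlier results of these data known. Genes were named if they were in the study's skeletal list, among the 12 largest differences or 6 smallest p in each direction (mean of at least 20 in 1 group), members of a list past the test or nearest to it, or lower genes with a seed match; symbols of the other genes past the test are given by pattern. For 1 gene selected by that rule no values are given. Alternatives were other pseudocounts, filters, scalings, variance models and weights, a replicate block and each library left out. A GC band for 3′ UTRs was added after seeing the data.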

Additional observations from a re-analysis of the deposited data

How the results depend on the processing

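Against 103 higher and 37 lower genes, 56 and 20 passed with no filter on low values, 32 and 9 without the intensity trend, and 350 and 274 with array weights. With 1 library left out, the higher genes ran from 32 to 291 and the lower from 5 to 224. Other pseudocounts, a filter of at least 20, the median ratio, quantile normalisation and robust eBayes left both counts within 1.5 times. Of the 140 genes, 27 passed in all 23 alternatives, and none changed sign where it was tested; the filter of at least 20 left out some low genes. Among the other differences named, 3 changed sign with 1 library left out: SRD5A1 ran from -0.259 to 0.0731, IFITM1 from -0.316 to 0.00519, and the main SOD2 identifier from -0.0564 to 0.208. Same-numbered libraries did not deviate together (correlations of -0.18 to 0.063, 0 of 18 pairs over 0.1). These values show no pairing by number, but they cannot exclude that same-numbered libraries shared a transfection or day. With the replicate block, 63 genes were higher and 11 lower. Taking 70% or 90% as the share for a pattern put 40 or 27 genes with the mimic control, 47 or 28 with the inhibitor, 34 or 7 with the mimic and inhibitor control together, and 1 or 76 with no single split. The causes of these shifts were not tested. Low values limit the precision of genes such as FGF18, whose levels outside the inhibitor group were under 15.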
